A study of Mus musculus with 4 samples.

Results

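Wnt and beta-catenin signalling in the brain vasculature was followed through 7 genes, the receptors Fzd4 and Fzd6, the co-receptor Lrp6, the transducer Ctnnb1, the nuclear partner Lef1 and the target genes Axin2 and Apcdd1. They were taken by gene symbol from the 55487 genes of a single-cell RNA sequencing study of mouse brain, and all 7 were found. The study comprised 4 libraries, 1 for each genotype (WT Cre or EC-K4KO) at each age (young or old). WT Cre mice are controls with the Cdh5-Cre driver, which places Cre under an endothelial promoter, and EC-K4KO mice join that driver with a floxed Klf4 gene, which is meant to be removed from endothelial cells, in brain and elsewhere, once Cre is induced. Per the study's methods the line is on the C57BL/6J background and tamoxifen was injected in young adult mice to induce Cre. The study states that control and knockout groups were treated alike, whereas the labels say that no drug was given. Mice of both sexes were used, and endothelial cells had been enriched by sorting or by purification on markers, per the labels. Each group is 1 library with no replicate, the number of animals behind it is not given in the sources used here, and the labels give age as young or old only.

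Canonical Wnt signalling begins when a Wnt ligand or norrin engages a Frizzled receptor together with Lrp5 or Lrp6. The destruction complex, which Axin proteins scaffold, then stops degrading beta-catenin (the product of Ctnnb1), and beta-catenin enters the nucleus and acts with the Tcf and Lef factors. In brain endothelium this pathway drives vessel ingrowth and the barrier phenotype and keeps it in the adult, and Axin2 and Apcdd1 are among the targets used to read its activity, both of them feedback inhibitors of the pathway.

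Levels are given as CPM, the UMIs (unique molecular identifiers, which count captured RNA molecules) of a gene per 1000000 UMIs of the cells named. Libraries held 30655769 to 88812581 UMIs in 5324 to 8358 barcodes, and 21714 of 26422 barcodes passed the cell filter. From the UMIs of 8 endothelial markers, 10630 cells were classed as endothelial-like (1949 to 3595 per library), and 126 of them lay near a limit of that class. Pairs of libraries shared 7 to 42 barcodes, the most between the young libraries. In endothelial-like cells the 8 endothelial markers summed to 15816 to 17280 CPM, against 46.2 to 89.0 CPM for 6 pericyte markers, 69.6 to 217 CPM for 6 smooth muscle markers and 30.6 to 231 CPM for 6 neutrophil markers, the last highest in the old library labelled EC-K4KO. Genes of the erythroid list reached 1492 to 3186 CPM, highest in the young library labelled EC-K4KO. Of the other lists over 100 CPM, 6 fibroblast markers summed to 139 to 217 CPM, 6 astrocyte markers to 110.3 to 122 CPM and 6 oligodendrocyte markers to 64.1 to 207 CPM. The 5 markers of choroid plexus epithelium moved with age, at 132 and 107 CPM in the young and 374 and 240.3 CPM in the old libraries (WT Cre, then EC-K4KO), with all 5 detected in each. The part of these other cell types in the values below was not tested.

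Klf4, the gene targeted by the cross, went against the genotype labels. Its level in endothelial-like cells was 1699 CPM in the young WT Cre library, 3292 CPM in the young library labelled EC-K4KO, 2097 CPM in the old WT Cre library and 3307 CPM in the old library labelled EC-K4KO. Both libraries labelled EC-K4KO were thus above both WT Cre libraries, and the model of age and label described below gave a log2 difference of 0.83 with label (edgeR, adjusted p = 0.067) and 0.30 with age (adjusted p = 0.131). The deposited counts are per gene and not per exon, so transcripts from a gene that has lost its floxed part cannot be told apart from intact ones. Every comparison of genotypes below is therefore one of labels, and EC-K4KO names the library labelled so.

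The 7 genes lie on 7 chromosomes (GRCm38, GENCODE M21). Axin2 spans chr11:108920349-108950783 and Lef1 chr3:131110471-131224356, both on the plus strand. Fzd4 spans chr7:89404355-89413134, Fzd6 chr15:39006034-39038188 and Ctnnb1 chr9:120929216-120960507, all on the plus strand, and Lrp6 spans chr6:134446476-134566965 on the minus strand. RefSeq promoter windows (GRCm38.p6) were matched for 4 of the 7 genes, and 2 windows of 250 bases before a transcription start are shown, that of the target gene Axin2, which fell with age, and that of an internal Lef1 start, the only one of these genes' 8 windows with a Tcf/Lef match. A Tcf/Lef match was CTTTGAA or its variant CTTTGAT or else the form CTTTGTA or its variant CTTTGTT, and CACCC is a core of many Klf binding sites. Both motifs were searched on both strands, capitals mark the matches, and none overlapped another.
Axin2 (chr11:108920099-108920348, plus strand): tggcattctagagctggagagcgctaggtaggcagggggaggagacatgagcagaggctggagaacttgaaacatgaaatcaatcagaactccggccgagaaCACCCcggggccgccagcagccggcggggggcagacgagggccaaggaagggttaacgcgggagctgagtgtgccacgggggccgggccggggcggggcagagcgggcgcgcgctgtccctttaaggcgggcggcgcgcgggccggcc
Lef1 internal start (chr3:131156044-131156293, plus strand): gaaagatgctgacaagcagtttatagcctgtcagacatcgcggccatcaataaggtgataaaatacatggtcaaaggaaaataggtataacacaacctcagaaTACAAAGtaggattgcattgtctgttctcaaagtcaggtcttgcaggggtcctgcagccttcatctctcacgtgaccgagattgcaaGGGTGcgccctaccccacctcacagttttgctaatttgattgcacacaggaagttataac
The Axin2 window held no Tcf/Lef match and 1 CACCC match, 148 bases before the start. In the Lef1 window there was 1 Tcf/Lef match at 147 bases and 1 CACCC match at 60 bases before the start, both read on the minus strand. Of all 32851 windows of that length, 14.8% held a Tcf/Lef match and 52.0% a CACCC match. These matches describe letters in a window, not sites.

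With age, Apcdd1, Axin2 and Fzd6 fell in endothelial-like cells, and the other members did not pass the test. Libraries were compared in an additive model of age and genotype label over the 4 endothelial-like sums (edgeR quasi-likelihood test, Benjamini-Hochberg adjustment over 15222 genes), which leaves 1 residual degree of freedom. In it 13.5% of all genes changed with age (8.74% rose and 4.72% fell). Of the 7 members, 3 fell and 0 rose, with a median log2 change of -0.19 against -0.02 over all genes tested. Since each group is 1 library, no spread between replicates enters these p-values. They rest on how far the 4 libraries depart from additive effects of age and label, with information shared among genes. Intervals given for a pair of libraries cover counting error only. In pooled sums, fewer cells with a transcript and fewer transcripts per cell cannot be told apart.

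Apcdd1 (chr18:62922231-62961179, plus strand), a membrane-bound inhibitor that binds Wnt and Lrp proteins, stood at 365 CPM in the young WT Cre library, 337 CPM in the young library labelled EC-K4KO, 179 CPM in the old WT Cre library and 167 CPM in the old library labelled EC-K4KO. As with every member, both old libraries lay below both young ones, with no overlap. Its log2 ratio of old to young was -1.03 among WT Cre libraries (95% counting interval -1.09 to -0.97) and -1.02 among those labelled EC-K4KO (-1.09 to -0.95). The additive model gave a log2 change of -0.88 (edgeR, adjusted p = 0.00225).

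Axin2, the destruction-complex scaffold that beta-catenin induces as negative feedback, stood at 92.2 CPM in the young WT Cre library, 72.6 CPM in the young library labelled EC-K4KO, 52.8 CPM in the old WT Cre library and 39.1 CPM in the old library labelled EC-K4KO. These values came from 2523, 3573, 849 and 442 UMIs. The libraries thus ran in the order of age, and within each age the library labelled EC-K4KO was the lower. Its log2 ratio of old to young was -0.80 (-0.92 to -0.69) among WT Cre libraries and -0.89 (-1.04 to -0.75) among those labelled EC-K4KO, and the model gave -0.70 (edgeR, adjusted p = 0.00439).

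Fzd6, a Frizzled receptor with a known part in planar cell polarity, stood at 169 CPM in the young WT Cre library, 163 CPM in the young library labelled EC-K4KO, 97.3 CPM in the old WT Cre library and 99.8 CPM in the old library labelled EC-K4KO. Young and old libraries did not overlap, and the libraries of one age differed by little. The log2 ratio of old to young was -0.79 (-0.88 to -0.71) among WT Cre libraries and -0.71 (-0.80 to -0.62) among those labelled EC-K4KO, with -0.60 in the model (edgeR, adjusted p = 0.00515). The calls of Axin2 and Fzd6 depended on the fit. With age as the only term over all 4 libraries Axin2 did not pass (-0.69, edgeR, adjusted p = 0.0624), while Apcdd1 and Fzd6 did. With 1 library also left out, 1 age was a single library, so the spread came from the libraries of the other age alone. Axin2 and Fzd6 did not pass in all of those fits, whose calls are not read further. Over all alternatives the log2 change lay between -0.93 and -0.74 for Apcdd1, -0.92 and -0.49 for Axin2 and -0.66 and -0.53 for Fzd6.

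The remaining members were nearer to each other across the libraries. Lef1, the nuclear partner of beta-catenin and itself a target, stood at 397, 370.1, 341 and 353 CPM in the libraries in the order used above (young WT Cre and EC-K4KO, then old WT Cre and EC-K4KO), and the model gave a log2 change with age of 0.00 (edgeR, adjusted p = 0.976). Ctnnb1 stood at 873, 881, 754 and 637 CPM in the same order, with -0.19 in the model (edgeR, adjusted p = 0.230). For both genes, as for every member, the old libraries were the lower ones in CPM without overlap. All genes had median log2 ratios of old to young of -0.18 in WT Cre and -0.15 in EC-K4KO libraries. The share of all genes that did not overlap in this way was not counted. The sums of old libraries had smaller TMM factors (0.961 and 0.962) than those of young ones (1.06 and 1.02), which moves the modelled change above the ratio of CPM.

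Fzd4, the Frizzled receptor that binds norrin and Wnt7 ligands at brain vessels, stood at 182, 191, 146 and 176 CPM in that order, and the co-receptor Lrp6 at 109, 106, 105 and 100.2 CPM. For Fzd4 the old library labelled EC-K4KO lay close to the young libraries. Lrp6 varied least, with a mean of 105 CPM ± 3.63 (SD over the 4 libraries). Their log2 changes with age in the model were -0.07 for Fzd4 (edgeR, adjusted p = 0.540) and 0.08 for Lrp6 (adjusted p = 0.411).

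**Figure D1:**
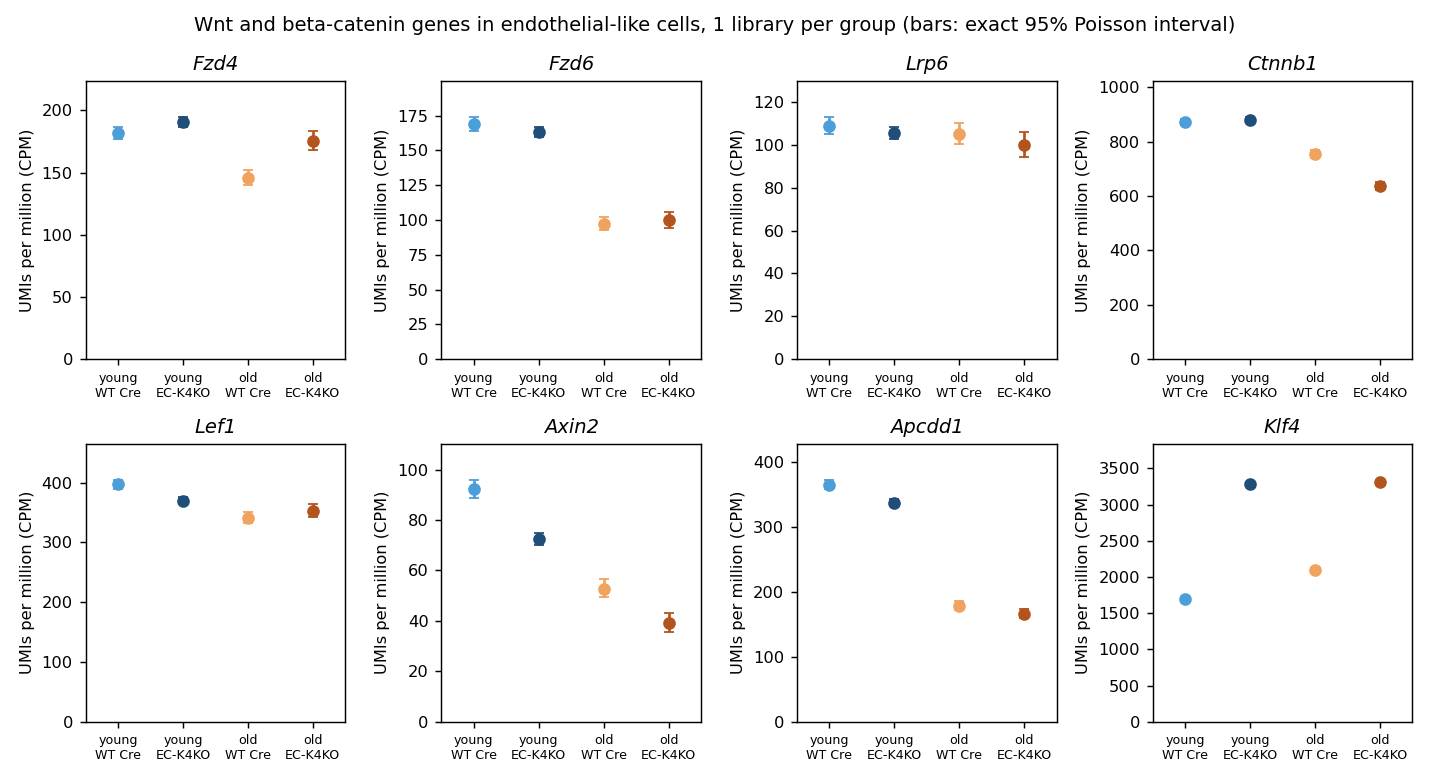
Levels of the 7 genes and of Klf4 in endothelial-like cells, in CPM (linear axes from 0), with 1 point per library and bars for the exact 95% Poisson interval. Every member is lower in both old libraries than in both young ones, with the largest falls for Apcdd1, Axin2 and Fzd6, and Klf4 is higher in both libraries labelled EC-K4KO.

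The same genes differed in the share of cells with a UMI when every cell was thinned to 1000 UMIs, a depth that all kept cells reached. For Axin2 that share was 8.36% and 7.54% of cells in the young and 5.09% and 4.52% in the old libraries (WT Cre, then EC-K4KO), and without thinning it was 47.0%, 49.3%, 27.1% and 18.2%. For Apcdd1 it was 30.5%, 26.9%, 17.1% and 16.0% after thinning and 80.4%, 83.5%, 52.6% and 48.0% before. Fzd6 followed with 15.8%, 15.6%, 10.1% and 10.5% after thinning and 66.5%, 74.0%, 42.2% and 39.9% before. In every case both old libraries were below both young ones.

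In Lef1 the thinned shares were close, at 31.4%, 30.8%, 29.6% and 30.4% of cells, against unthinned shares of 84.9%, 87.2%, 74.4% and 70.1%. In microglia-like cells, which should lack Lef1, Axin2, Apcdd1 and Fzd6, at most 0.684% of cells held a UMI of any 1 of these 4 genes after thinning. The median depth was 6383.5 UMIs in endothelial-like and 5379 UMIs in microglia-like cells over all libraries.

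Side by side, the 2 comparisons of age and the 2 of genotype label differed in how many members passed a log2 ratio of 0.5 in size, a rule of size with no test. At or below -0.5 were 3 of 7 members in WT Cre mice, where 11.2% of the 8447 genes averaging 10 CPM or more were, and 3 of 7 in mice labelled EC-K4KO, where 9.65% were. These comparisons of age share no library with each other. The member medians were -0.32 and -0.47 against all-gene medians of -0.18 and -0.15. With genotype label no member passed in either direction. Of all genes 1.76% were at or below -0.5 and 1.83% at or above 0.5 among young libraries, 1.85% and 2.0% were among old ones, and the member medians were -0.05 and -0.07.

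With genotype label, 0 of 7 members passed the additive model (edgeR), in which 0.394% of all genes did. At an unadjusted p under 0.05 there were 2, Axin2 and Fzd4, beside 1583 of all 15222 genes, and DESeq2 also called 0. Axin2 had a log2 difference of -0.35 (edgeR, adjusted p = 0.142). With no filter on low counts Axin2 was called (-0.36, edgeR, adjusted p = 0.00437), where 764 of 27696 genes were. The log2 ratio of EC-K4KO to WT Cre for Axin2 was -0.34 (-0.42 to -0.27) between young libraries and -0.43 (-0.60 to -0.26) between old ones.

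Fzd4 differed the other way, with 0.19 in the model (edgeR, adjusted p = 0.435) and log2 ratios of 0.07 (0.02 to 0.12) between young libraries and 0.27 (0.18 to 0.36) between old ones. Ctnnb1 had log2 ratios of 0.01 (-0.01 to 0.04) when young and -0.24 (-0.29 to -0.20) when old. Lef1 had log2 ratios of -0.10 (-0.14 to -0.07) and 0.05 (-0.01 to 0.11). For Ctnnb1 and Lef1 1 of the 2 intervals included 0, so no change of direction between the pairs was shown. Apcdd1 had log2 ratios of -0.11 (-0.15 to -0.08) when young and -0.10 (-0.19 to -0.02) when old. Fzd6 and Lrp6 had ratios between -0.07 and 0.04 in both pairs, with intervals that included 0.

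**Figure D2:**
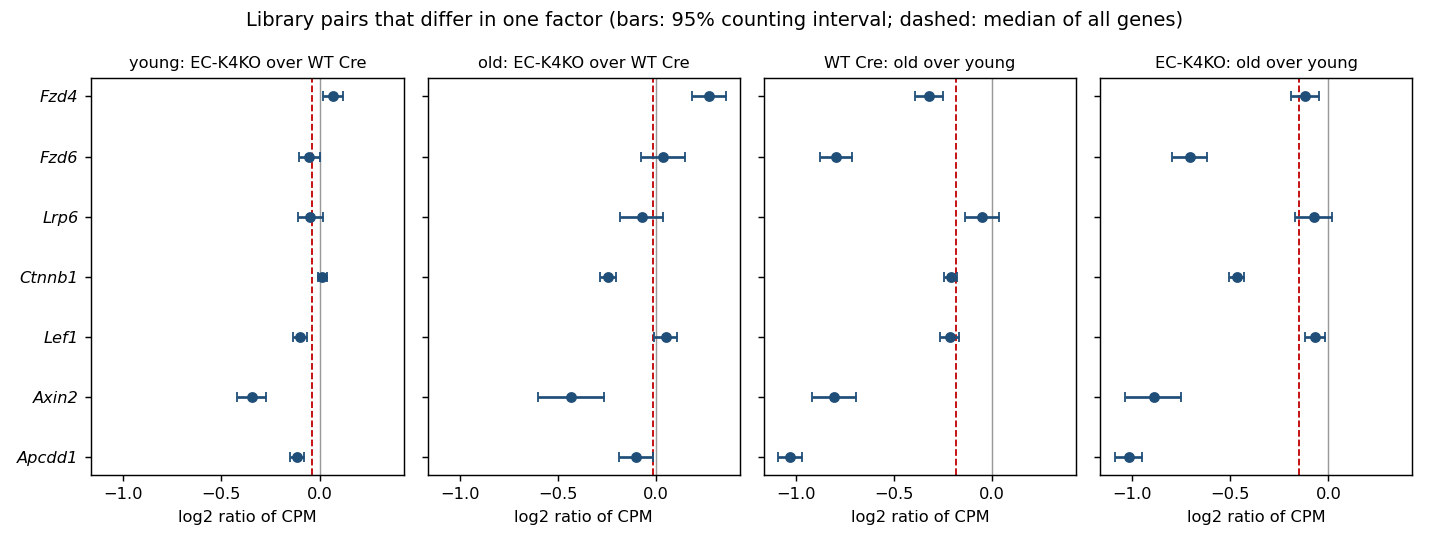
Log2 ratio of CPM (x axis) of each gene between libraries that differ in age or in genotype label, in endothelial-like cells, with 95% counting intervals and a dashed line at the median of all genes. Apcdd1, Axin2 and Fzd6 lie between -1.03 and -0.71 in both comparisons of age, while all 7 genes lie between -0.43 and 0.27 in both comparisons of label.

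Endothelial-like cells were sorted into vessel segments by the UMIs of 10 arterial, 6 capillary and 8 venous markers, none of them a member: 1029 arterial-like, 6270 capillary-like, 910 venous-like and 2421 in between. The segments were checked on 8 genes that did not choose them. Of the arterial genes, the connexin Gja4 stood at 163 to 287 CPM in arterial-like and at 10.4 CPM or less in the other segments, and Gja5 and Hey1 were also highest in arterial-like cells of every library. Icam1, a venule adhesion molecule, stood at 876 to 1904 CPM in venous-like and at 58.5 to 287 CPM in the other segments, and Tmem252 at 1132 to 1666 CPM in venous-like cells, close to the arterial-like 1637 CPM in the old library labelled EC-K4KO. Of the capillary genes, Mfsd2a stood at 240.5 to 342 CPM in capillary-like cells and at 106 CPM or less in the other segments. The other capillary genes parted capillary-like from venous-like cells less: the transferrin receptor gene Tfrc stood at 234 to 323 against 183 to 267 CPM, and Slc16a1 was higher in venous-like cells of both young libraries (719 against 625 CPM and 478 against 437 CPM). Capillary-like cells made up 66.0% and 62.7% of endothelial-like cells in the young and 52.0% and 49.97% in the old WT Cre and EC-K4KO libraries.

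The fall with age was also seen within segments. In capillary-like cells the log2 ratio of old to young was -0.93 and -0.85 for Apcdd1, -0.75 and -0.69 for Fzd6 and -0.58 and -0.69 for Axin2, in WT Cre and EC-K4KO libraries. At or below -0.5 were again 3 of 7 members in both, beside 11.3% and 11.2% of all genes. In venous-like cells the same 3 genes lay between -1.08 and -0.69 (3 of 7 members in both, beside 15.9% and 14.1% of genes). Arterial-like cells held 3 of 7 in WT Cre (16.2% of genes) and 2 of 7 in EC-K4KO libraries (12.7%), where Axin2, with 62 UMIs in the old library, had -0.36 (-0.82 to 0.07). A test of whether the change with age differed between segments passed for 0 of 7 members (edgeR, 2.49% of all genes), and 1, Axin2, had an unadjusted p under 0.05 (adjusted p = 0.434), beside 1380 of all 12632 genes. DESeq2 called 0 as well.

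Arterial-like and venous-like cells were each compared with capillary-like cells, with the library as a block and 12 sums in the model (edgeR, 12632 genes). Between arterial-like and capillary-like cells 36.4% of all genes passed, 16.3% lower and 20.1% higher in arterial-like cells. Of the members 5 of 7 were lower and 1 was higher, and their median log2 difference was -0.69 against -0.02 over all genes tested.

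Apcdd1 was the member with the steepest segment difference. It stood at 88.8, 85.9, 43.2 and 53.2 CPM in arterial-like cells of the libraries in that order and at 419.7, 354, 221 and 197 CPM in their capillary-like cells. Every arterial-like value was below every capillary-like one. The log2 difference within libraries was -2.13 ± 0.207 (SD, n = 4 libraries) and -2.10 in the model (edgeR, adjusted p = 3.68e-11).

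Lef1 stood at 224, 213, 204 and 233 CPM in arterial-like, at 416, 367, 362 and 351 CPM in capillary-like and at 470.4, 462, 416 and 426 CPM in venous-like cells of the same libraries. Within each library its level rose in that order of segments. Against capillary-like cells the model gave -0.74 for arterial-like (edgeR, adjusted p = 7.21e-08) and 0.27 for venous-like cells (adjusted p = 0.00112).

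Fzd4 had the same order, with 105, 117, 81.0 and 117 CPM in arterial-like, 179, 189.6, 154 and 170.0 CPM in capillary-like and 254, 230.0, 181 and 214 CPM in venous-like cells. In all 4 libraries the venous-like value was the highest of the 3. The model gave -0.69 for arterial-like (edgeR, adjusted p = 1.48e-06) and 0.36 for venous-like cells (adjusted p = 0.000527).

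Axin2 stood at 59.6, 35.1, 36.9 and 27.3 CPM in arterial-like, 97.8, 76.0, 65.2 and 47.1 CPM in capillary-like and 82.6, 70.1, 43.1 and 33.1 CPM in venous-like cells. Of these 3 segments the capillary-like value was the highest and the arterial-like value the lowest in every library, while cells in between stood at 106, 79.7, 54.2 and 44.2 CPM, above the capillary-like value in both young libraries. Arterial-like cells were lower by a log2 difference of -0.82 (edgeR, adjusted p = 1.16e-05). The smaller venous difference of -0.28 (adjusted p = 0.0289) did not pass under 7 of 11 alternatives.

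The other members moved less. Ctnnb1 was lower in arterial-like (-0.26, adjusted p = 0.00114) and venous-like cells (-0.40, edgeR, adjusted p = 3.56e-05) than in capillary-like ones, and neither call held after thinning (-0.22 in both, adjusted p = 0.0601 and 0.0779). Fzd6 was lower in venous-like cells (-0.39, edgeR, adjusted p = 4.24e-05), with a difference within libraries of -0.42 ± 0.0673 (SD, n = 4), and had 0.09 in arterial-like cells (adjusted p = 0.187). After thinning the venous calls of Fzd6 (-0.43, adjusted p = 0.0677) and of Lef1 (0.22, adjusted p = 0.0893) did not pass either. Lrp6 was higher in arterial-like cells (0.22, edgeR, adjusted p = 0.0105), a call that ended after thinning (adjusted p = 0.574) and with no filter on low counts (0.0729), and had -0.01 in venous-like cells (adjusted p = 0.957). Apcdd1 had -0.03 there (adjusted p = 0.798). Altogether 5 of 7 members passed between venous-like and capillary-like cells, 2 higher and 3 lower, where 30.9% of all genes did (15.7% higher and 15.2% lower). The difference between labels varied with the segment for 0 of 7 members (edgeR, 0.712% of genes, DESeq2 0, unadjusted p under 0.05 for 0). For Fzd4 the log2 ratio of EC-K4KO to WT Cre between young libraries was -0.14 (-0.26 to -0.03) in venous-like cells. It was 0.15 in arterial-like and 0.08 in capillary-like cells. Between old libraries the ratios were 0.24 in venous-like, 0.54 in arterial-like and 0.14 in capillary-like cells.

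**Figure D3:**
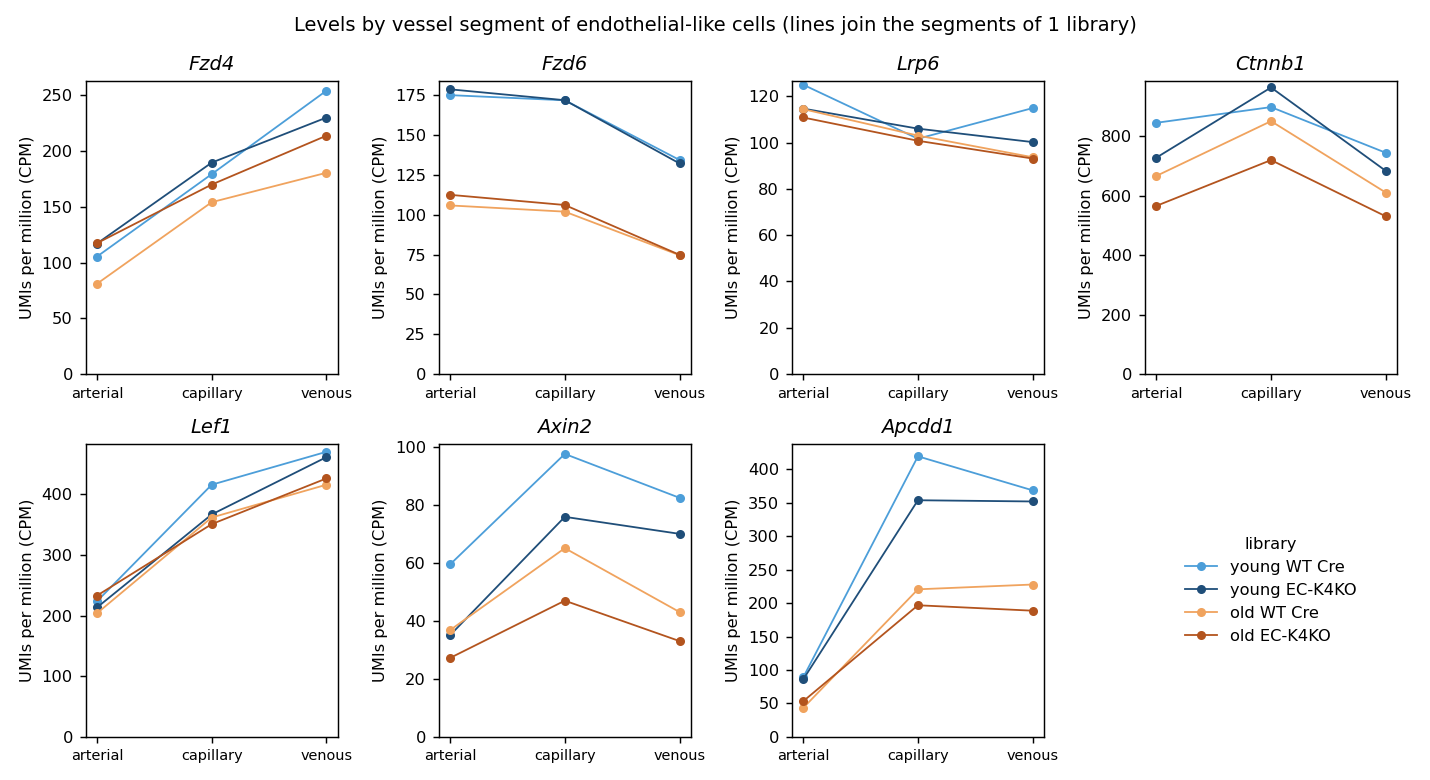
Levels of the 7 genes in CPM (linear axes from 0) in arterial-like, capillary-like and venous-like cells, with 1 line per library. Apcdd1 is lowest in the arterial-like cells of all 4 libraries (43.2 to 88.8 CPM), and Lef1 and Fzd4 run upward from arterial-like to venous-like cells in each.

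All 7 genes were set against the other cell classes with at least 50 cells in every library, pericyte-like, smooth muscle-like, astrocyte-like and microglia-like cells, named by marker UMIs (edgeR, 20 sums with the library as a block, 14501 genes). Endothelial-like cells were higher for 7 of 7 members than astrocyte-like, microglia-like and smooth muscle-like cells, where 37.0%, 34.6% and 34.1% of all genes were. Against pericyte-like cells 6 of 7 were higher, beside 25.6% of genes. Lef1 stood at 365 CPM ± 24.1 in endothelial-like cells against 35.9 ± 9.28 in pericyte-like, 14.2 ± 6.65 in astrocyte-like, 3.96 ± 2.13 in smooth muscle-like and 1.74 ± 1.01 in microglia-like cells (mean ± SD, n = 4 libraries).

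Pericyte-like cells came close to endothelial-like cells in Axin2 and Fzd6. Axin2 stood at 95.3, 94.9, 73.4 and 22.9 CPM in the pericyte-like cells of the libraries in that order, from 60, 70, 30 and 5 UMIs, and the log2 difference from endothelial-like cells was 0.03 (edgeR, adjusted p = 0.907). The endothelial-like values of 39.1 to 92.2 CPM all lay within the range of the pericyte-like ones. Fzd6 was called higher in endothelial-like cells (0.43, edgeR, adjusted p = 0.0374), which 6 of 10 alternatives ended. Fzd4 and Lef1 kept the classes apart, with log2 differences of 4.01 (adjusted p = 2.96e-12) and 3.68 (adjusted p = 1.01e-13), and Ctnnb1 (2.38), Apcdd1 (1.37) and Lrp6 (0.66) were higher in endothelial-like cells as well.

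Apcdd1 also had lower values in the old pericyte-like cells, with 162, 155, 83.2 and 77.8 CPM from 102, 114, 34 and 17 UMIs in the same order of libraries. Its log2 ratio of old to young there was -0.95 (-1.57 to -0.39) in WT Cre and -0.96 (-1.82 to -0.25) in EC-K4KO libraries, and with it 5 of 7 and 3 of 7 members were at or below -0.5, beside 28.0% and 21.1% of genes. The others were Fzd6 (-0.79), Lrp6 (-0.80), Lef1 (-0.80) and Fzd4 (-0.66) in WT Cre and Axin2 (-1.93) and Fzd4 (-0.88) in EC-K4KO libraries, of which Fzd4 rested on 2 to 15 UMIs and Lef1 on 9 and 25. In smooth muscle-like cells the ratios of Apcdd1 were -0.57 (-0.89 to -0.26) and -0.01 (-0.39 to 0.33). These are ratios of single libraries, with no test.

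**Figure D4:**
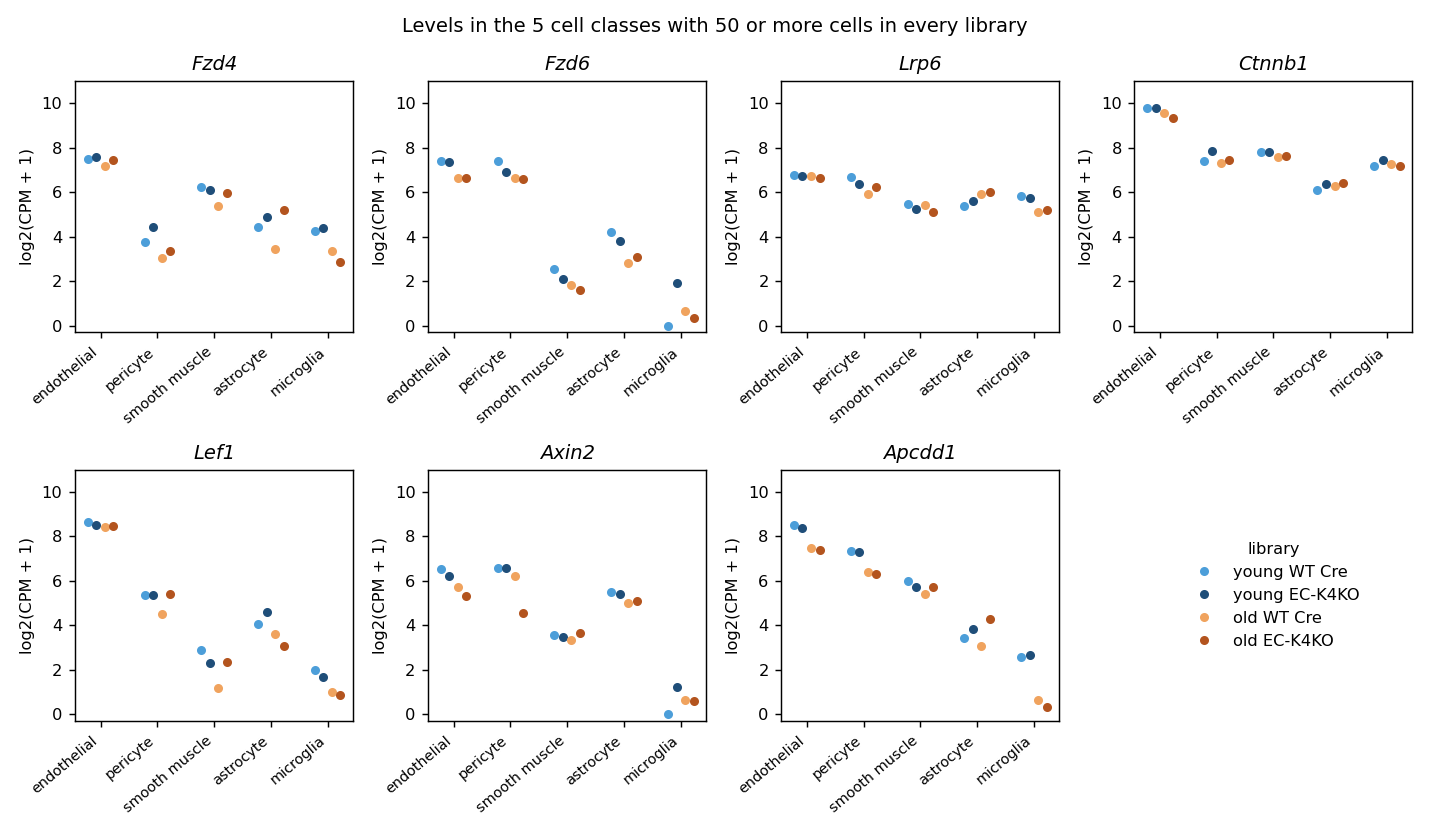
Levels of the 7 genes as log2(CPM + 1) in the 5 cell classes with at least 50 cells in every library, with 1 point per library. Of the 5 classes, endothelial-like cells hold the highest Lef1 level in every library (365 CPM on average), whereas Axin2 and Fzd6 overlap between endothelial-like and pericyte-like cells.

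Genes whose pattern over the 20 sums of library and class was most like that of a member were found by Pearson correlation of log2(CPM + 1) over 9861 genes, as a description. The points share libraries and depth and fall into 5 classes, so r mainly follows the difference between classes. Dock9 was most like Lef1 (r = 0.973), Kitl most like Ctnnb1 (0.972) and Crtap most like Apcdd1 (0.972). Lysmd2 (0.963) and Tnfrsf19 (0.962), the latter from the list of target genes, were most like Axin2, Adgrl2 most like Fzd4 (0.948), Pttg1ip most like Fzd6 (0.968) and Tjp1, which encodes the tight junction protein ZO-1, most like Lrp6 (0.933).

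The rest of the pathway was read from lists by role, 115 genes in all, of which 81 were tested for age. With age 9 of these rose and 11 fell, and 61 did not pass (edgeR), where 8.74% of all genes rose and 4.72% fell. The median log2 change was -0.02, as it was over all genes tested. Axin2, Apcdd1 and Fzd6 were thus accompanied by changes in both directions. Unlike the members, these pathway genes were not followed gene by gene under other fits. With age as the only term 949 genes were called instead of 2049, so some of these calls may not hold.

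Of 13 further feedback and target genes tested, 5 fell and 3 rose. Tnfrsf19, a receptor of the TNF family, fell by 0.73 on the log2 scale (edgeR, adjusted p = 0.00292), with 139, 115, 75.4 and 62.8 CPM in the libraries in that order. Tcf7 (-0.86), the cytoplasmic inhibitor Nkd1 (-0.53) and the transcription factor Foxf2 (-0.53) were among the others that fell. Sox7 (0.92), Nkd2 (0.82) and the cyclin Ccnd1 (0.28) rose. Among 5 inhibitors, Notum, the lipase that inactivates Wnt proteins, fell (-0.83, edgeR, adjusted p = 0.00352), from 72.2 and 52.6 CPM in the young to 38.0 and 25.8 CPM in the old libraries, and Dkk2 rose (1.45) from a level under 10 CPM.

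Among 14 other receptors and co-receptors Lrp5 (-0.38) and Adgra2 (-0.32), the Wnt7 co-receptor also known as Gpr124, fell and Fzd5 (0.97) rose. Reck, the partner of Adgra2, had -0.10 and did not pass (adjusted p = 0.556). Of 17 cytoplasmic transducers Dvl3 (-0.54) fell and Gsk3a (0.38) rose, while Gsk3b (0.09) and Csnk1a1 (0.29) did not pass. Of 14 nuclear partners Tcf7, which is on both lists, fell, and Tcf7l2 (0.51) and the co-repressor Tle3 (0.65) rose, with -0.07 for Ctnnbip1 and 0.35 for Tle4, which did not pass.

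Of 6 ligands Wnt5b (0.68) rose and Wnt5a (-0.11) did not pass. Of 7 barrier genes the lipid transporter Mfsd2a fell (-0.43, edgeR, adjusted p = 0.0172). In capillary-like cells alone Mfsd2a stood at 342, 303, 240.5 and 260 CPM in the libraries in that order. The part of the smaller capillary-like share of the old libraries in the pooled changes of these pathway genes was not tested. The tight junction gene Cldn5 had -0.39 (adjusted p = 0.0589) and the glucose transporter Slc2a1 0.29 (adjusted p = 0.0881). Of 6 junction partners of beta-catenin Cdh2, which encodes N-cadherin, fell (-1.01), and Cdh5 (-0.02) and Ctnna1 (-0.05) did not pass. The target genes Foxq1 (-0.07) and Sox17 (0.21) and the inhibitor Kremen1 (-0.15), among the most abundant of their lists, did not pass either.

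**Figure D5:**
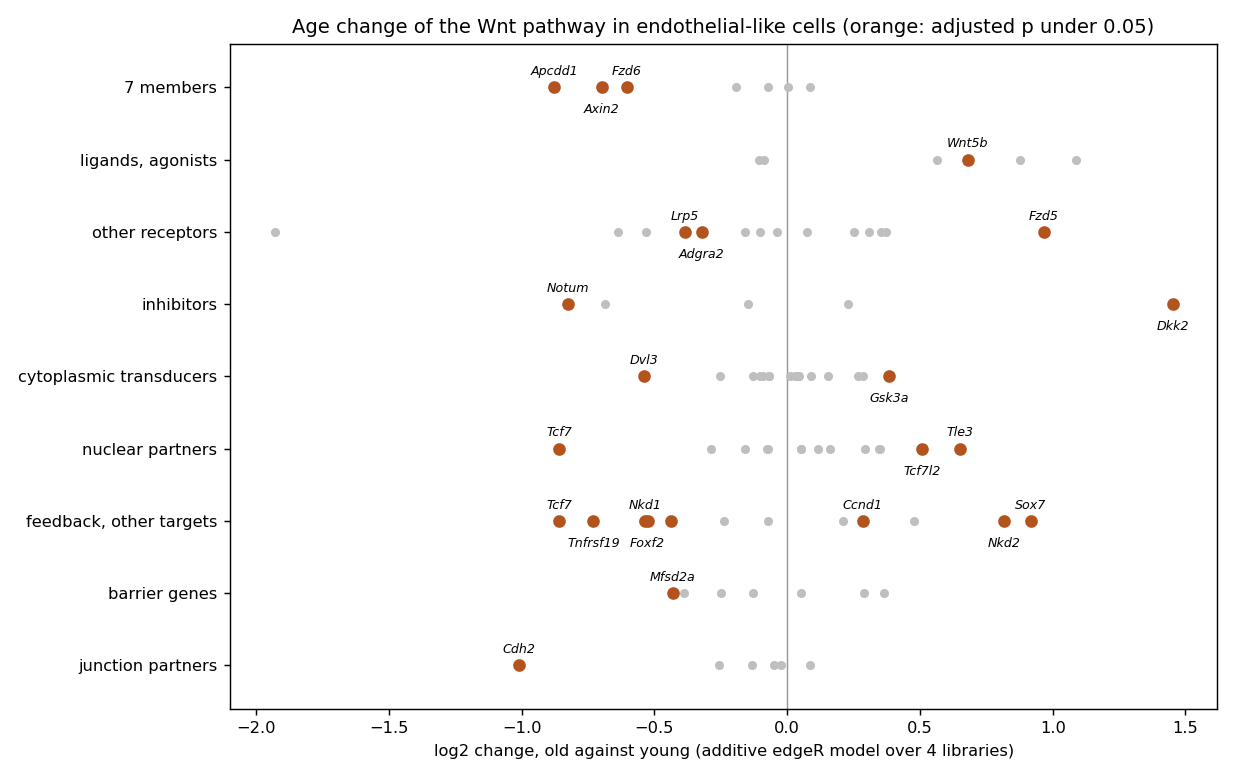
Log2 change with age in the additive model (x axis) for the 7 members and for the other tested genes of the pathway by role (y axis), 1 point per gene, with orange points at an adjusted p under 0.05, labelled where the gene is named in the text. Of the members 3 fell and none rose, and in the other roles 11 genes fell and 9 rose.

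With genotype label 1 of the 81 tested genes passed, beside 0.394% of all genes, the target gene Ccnd1 (-0.95, edgeR, adjusted p = 0.0193), at 124 and 129.7 CPM in the WT Cre and 59.9 and 69.5 CPM in the libraries labelled EC-K4KO. Between segments, of 74 genes tested 19 were higher and 18 lower in arterial-like than in capillary-like cells, beside 20.1% and 16.3% of all genes. Of 13 target genes 6 were lower and 3 higher there, with Nkd1 the lowest (-2.16, edgeR, adjusted p = 4.68e-12), and of 7 barrier genes 5 were lower and 1 higher, with Mfsd2a the lowest (-1.69, adjusted p = 1.13e-10). Of 11 receptors 4 were higher and none lower, Fzd1 (0.92), Reck (0.74), Ryk (0.54) and Fzd3 (0.52).

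In venous-like cells 16 genes were higher and 22 lower than in capillary-like ones, beside 15.7% and 15.2% of all genes. Wnt5a was higher by a log2 difference of 2.92 (edgeR, adjusted p = 3.46e-11), and Mfsd2a (-1.71) and Reck (-0.77) were lower. Notum was lower in both, by -1.12 in arterial-like and -0.86 in venous-like cells. The change with age differed between segments for 4 of the 74 genes, Ccnd1, Sox17, Sox7 and Plvap, beside 2.49% of all genes, and the difference between labels for 1, Plvap, beside 0.712%.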

How the data were processed

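Per the file headers, the authors made the deposited raw UMI counts per gene and barcode with Cell Ranger 6.0.2. The submitters' processing notes name mm10, GRCm38 and Seurat. No later filter of the authors is visible in these counts, whose lowest barcode held 500 UMIs. A single library per group gives each value counting precision only (exact Poisson and Clopper-Pearson intervals at 95%), and depth ranged from 30655769 to 88812581 UMIs.

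Barcodes were kept with at least 500 genes, 1000 UMIs and at most 10% mitochondrial UMIs. A cell took the class whose marker UMIs per 10000 reached at least 20% of the median of the 100 cells highest for that class, with at least 3 of its markers detected and no other class above 1/3 of it. Of the kept barcodes 1878 were left out as mixed and 682 as low. Segments within endothelial-like cells were set likewise, with limits of 10% for arterial, 20% for venous and 20% for capillary markers. Marker lists held no member. Doublets were removed only through the mixed class. Scrublet (scanpy 1.11.5) called 39 to 150 barcodes per library automatically, and its highest scores were left out as an alternative. Leiden clusters (leidenalg 0.10.2) were another alternative.

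UMIs were summed per library, class and segment. Ratios between libraries used CPM with 0.5 UMIs added and an exact conditional binomial interval. Sums were tested with the edgeR 4.0.16 quasi-likelihood test after filterByExpr and TMM, with Benjamini-Hochberg adjustment over all genes tested, and DESeq2 1.42.0 as an alternative (R 4.3.3). The change of segment effects with age or label was tested on both terms together, by a likelihood ratio in DESeq2. The authors' tests between cells were not repeated, since cells are not replicates. The tests were also run on simulated counts with the same dispersion setting for every gene. That simulation held no variation between animals or batches and cannot show how the tests behave under it.

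The rule for named genes took the members and Klf4, every other pathway gene past an adjusted p of 0.05 for age or label, and the 2 most abundant genes of each role. It also covered every pathway gene called between segments, Klf4 in the segment and class models, and the members in every class, of which most are given as counts or left out. Of the pathway genes called with age, 1 is counted but not reported here by name. The members, lists and markers were chosen with earlier results of these data known. Of 55487 gene identifiers 55094 matched GENCODE M21. Promoter windows for Apcdd1, Fzd6 and Lrp6 were not used here.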

Additional observations from a re-analysis of the deposited data

How the results depend on the processing

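Each choice was changed alone, except that leaving out 1 library from the additive model of age also dropped the label as a term. No called value of a member changed its direction, and the other pathway genes were not followed under the alternatives. The age fits with 1 library left out, and age as the only term over all 4 libraries, were chosen after seeing the data. Members called with age were 3 under 9 alternatives, 2 with age as the only term and 1 to 2 with 1 library left out as well (1 without old EC-K4KO). Genes called numbered 2049 in the report, 949 with age as the only term and 217 to 521 with 1 library left out as well. Axin2 was lost with age as the only term and without young WT Cre, young EC-K4KO or old EC-K4KO, and Fzd6 without old WT Cre or old EC-K4KO. Genes called with age numbered 1043 with DESeq2, 3906 with no filter on low counts, 589 after thinning and 928 at 50 CPM or more. Without the low-count filter, 1 member was called for genotype label, Axin2 (adjusted p = 0.00437, 0.00437 to 0.831 over its alternatives).

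Genes called for label, 60 in the report, numbered 121 with DESeq2, 34 with size factors, 764 with no low-count filter, 25 after thinning, 109 with a stricter cell filter, 142 without high Scrublet scores, 38 at 50 CPM or more, 231 in cells from clusters and 173 in capillary-like cells alone. After thinning, which left 5645 genes to test instead of 12632, 1 member was called between venous-like and capillary-like cells instead of 5. Genes called numbered 940 instead of 3907 there, and 1184 instead of 4604 between arterial-like and capillary-like cells, where Lrp6 and Ctnnb1 were lost (adjusted p = 0.574 and 0.0601). Thinned calls for endothelial-like cells were 5217 genes against astrocyte-like, 5323 against microglia-like, 3587 against pericyte-like and 4909 against smooth muscle-like cells. Segment differences with age numbered 53 with DESeq2 instead of 314. Those with label numbered 17 with DESeq2 and 158 with other segment markers instead of 90.

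The member median in WT Cre mice of different age moved from -0.32 to -0.18 with TMM factors, -0.15 with size factors, -0.18 after thinning and -0.22 in capillary-like cells. In mice labelled EC-K4KO it moved from -0.47 to -0.38 with TMM, -0.35 with size factors, -0.42 with cells weighted equally, -0.37 after thinning and -0.42 in capillary-like cells. In the young pair it was 0.014 after thinning, and in the old pair 1 member reached a log2 ratio of -0.5 with the stricter cell filter. The TMM factors and size factors of the old libraries were smaller than those of the young ones, which moves ratios of old to young upward. The cause of the other shifts was not tested. Libraries could not be paired by replicate because every title carries the same replicate number, so the groups share only 1 number.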

Other observations

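Among cell classes with too few cells for a test, Lrp6 stood out in border macrophage-like cells, the macrophages of the perivascular space and meninges. Its level there was 346 CPM (exact 95% Poisson interval 280.4 to 422) in 41 cells of the young WT Cre library and 310.2 CPM (259 to 368) in 64 cells of the young library labelled EC-K4KO. It was 174 CPM (130.4 to 227) in 51 cells of the old WT Cre library and 119 CPM (71.9 to 186) in 28 cells of the old library labelled EC-K4KO, so both old libraries lay below both young ones. The share of all genes that did so in these cells was not counted. Microglia-like cells held 56.2 and 51.8 CPM of Lrp6 in the young and 33.6 and 36.1 CPM in the old libraries. The log2 ratios of old to young there were -0.75 in WT Cre and -0.52 in EC-K4KO libraries, beside all-gene medians of -0.25 and -0.30. Lef1, which T cells also use, stood at 81.9 and 149 CPM in T and NK-like cells of the young libraries and at 37.0 and 41.0 CPM in those of the old ones, from 12, 37, 5 and 5 UMIs. These are single libraries with few cells, and no difference among them was tested.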
